A study of Homo sapiens with 6 samples.

Results

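The 8 genes described here encode the receptors and ligands of the platelet-derived growth factor (PDGF) family and of the related KIT pathway: the receptors PDGFRA, PDGFRB and KIT, the PDGF ligands PDGFA, PDGFB, PDGFC and PDGFD, and the KIT ligand KITLG. They were taken by symbol from a table of 59653 genes, and the set was proposed because PDGFRB was among the strongest increases after SOX2 siRNA. The values of the contrast between the groups therefore chose the set, and they are given below for its 8 genes as a description, without a test. Of the 8 genes, 7 passed the filter on low counts and KIT did not. PA1 is an established human ovarian teratocarcinoma cell line, labelled wild type, so the data come from a single line. Its cells were transfected in adherent culture with a small interfering RNA (siRNA) used as negative control or with one against SOX2, a transcription factor of pluripotent cells. A pair of SOX2 siRNAs is named in the labels, and whether they were used singly or together is not stated. In both groups the cells were moved after 24 h to plates coated with poly-HEMA, which prevents attachment, and grown in suspension for a further 72 h before RNA extraction. Each group had 3 libraries of polyadenylated RNA, numbered 1 to 3, and those with SOX2 siRNA are called knockdown libraries below. Nothing in the labels says whether these came from separate cultures, so p-values measure the spread between these libraries, which may be technical.

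The PDGF receptors and KIT are class III receptor tyrosine kinases, with an extracellular part made of immunoglobulin-like domains and a split kinase domain inside the cell. PDGF ligands act as dimers that bring receptor chains together. PDGF-A binds the alpha receptor, PDGF-B binds both receptors, PDGF-C acts mainly through the alpha receptor, and PDGF-D acts mainly through the beta receptor. PDGF-C and PDGF-D are secreted as latent proteins with a CUB domain that must be cut off. In the embryo, PDGFRA is known from mesoderm, neural crest and primitive endoderm, and PDGFRB from pericytes and other mesenchymal cells around vessels. KIT and its ligand, also called stem cell factor, act in germ cells, melanocytes, mast cells and blood stem cells.

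The genes lie on different chromosomes, except that PDGFRA, KIT and PDGFC are all on chromosome 4. Positions are from GENCODE 29 on GRCh38, and the submitters' processing notes name GRCh38.p13. PDGFRA spans bases 54229097 to 54298247 and KIT bases 54657918 to 54740715 of the plus strand of chromosome 4, with 359.67 kb between them. PDGFC lies far away on the minus strand of that chromosome, at 156760454 to 156971394. PDGFRB is on the minus strand of chromosome 5 at 150113837 to 150155872, and KITLG on the minus strand of chromosome 12 at 88492793 to 88580851. PDGFA (chromosome 7, 497258 to 520296), PDGFD (chromosome 11, 103907186 to 104164379) and PDGFB (chromosome 22, 39223359 to 39244751) are also on the minus strand. The counts cover the exons of each gene as a whole. Exons of KITLG share 80 bases with an antisense RNA, AC024941.2, whose mean was 0.423 CPM (counts rescaled by library size with TMM factors) in control and 0.293 CPM after SOX2 siRNA. PDGFRA shares 1533 exonic bases with AC058822.1 on the same strand and PDGFD shares 193 with DDI1 on the opposite strand. Both overlapping genes had no counts in any library.

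RefSeq promoter windows, from 250 bases before to 50 bases after an annotated start, were available for 6 of the 8 genes, in 10 windows. They are shown for PDGFRB and KITLG, which had the largest differences in opposite directions, and for PDGFRA, whose window can be set beside that of the other PDGF receptor. Capitals mark matches on either strand to CCAAT (the CCAAT box), GGGCGG (the GC box) and TATAAA (the TATA box); overlapping matches were counted.
PDGFRB, GRCh38.p14, minus strand, chr5:150155796-150156095: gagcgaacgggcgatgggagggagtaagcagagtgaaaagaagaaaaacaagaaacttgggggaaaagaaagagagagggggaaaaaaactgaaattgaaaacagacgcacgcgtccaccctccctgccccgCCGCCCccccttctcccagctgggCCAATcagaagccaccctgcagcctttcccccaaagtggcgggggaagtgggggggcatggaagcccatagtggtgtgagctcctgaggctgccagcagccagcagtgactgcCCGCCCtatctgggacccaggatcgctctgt
PDGFRA, GRCh38.p14, plus strand, chr4:54233710-54234009: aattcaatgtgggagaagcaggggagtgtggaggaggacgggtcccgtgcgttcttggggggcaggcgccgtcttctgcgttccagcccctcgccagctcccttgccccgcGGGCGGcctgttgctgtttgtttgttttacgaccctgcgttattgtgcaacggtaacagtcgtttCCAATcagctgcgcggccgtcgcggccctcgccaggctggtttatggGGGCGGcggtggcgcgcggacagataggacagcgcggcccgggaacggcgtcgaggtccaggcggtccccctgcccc
KITLG, GRCh38.p14, minus strand, chr12:88580422-88580721: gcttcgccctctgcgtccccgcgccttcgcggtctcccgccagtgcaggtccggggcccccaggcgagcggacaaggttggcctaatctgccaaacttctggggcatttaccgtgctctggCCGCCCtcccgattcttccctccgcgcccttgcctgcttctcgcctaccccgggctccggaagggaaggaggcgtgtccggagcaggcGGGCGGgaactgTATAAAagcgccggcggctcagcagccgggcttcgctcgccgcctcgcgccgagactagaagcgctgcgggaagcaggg

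Both receptor windows shown held 1 CCAAT match and 2 GGGCGG matches each. The other PDGFRA window held no match to any motif searched, and the one shown was picked after the matches were seen. The KITLG window held 2 GGGCGG matches and 1 TATAAA match. Among all 35116 promoter windows of this length, 34.6% held CCAAT, 44.95% held GGGCGG and 11.5% held TATAAA. Of SOX-type sequences, only the 6-base cores ACAAAG and ACAATG were searched, on both strands. None of the 10 windows of these genes held either, and other SOX-type sequences were not looked for. Of all windows, 16.1% held ACAAAG and 10.8% held ACAATG. PDGFA had 4 windows, with 1 to 5 GGGCGG matches each and a GC content of 70.3% to 81.7%, against a median of 58.7% over all windows. The GC content was 59.3% for PDGFRB, 66.7% for the PDGFRA window shown and 69.7% for KITLG. These letters describe the windows and say nothing of which factors bind there.

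SOX2 was checked first because it was the target. Control libraries 1 to 3 held 8093, 6647 and 7396 SOX2 counts, and knockdown libraries 1 to 3 held 1564, 1776 and 1513. No knockdown library reached any control library. The log2 fold change, knockdown over control, was -2.28 (SE 0.0437), with a p of 5.97e-16 from edgeR after Benjamini-Hochberg adjustment. Library totals ranged from 25152313 to 32753184 counts, at which 3 counts correspond to 0.0909 to 0.120 CPM. These CPM values are a conversion of units and not a measured limit of detection. Across the series, 4964 of 17592 tested genes (28.2%) had an adjusted p under 0.05 and are referred to as called. Of all tested genes, 14.8% were called higher and 13.4% lower, and 3.17% were called with at least a 2-fold change. Over every tested gene, the log2 fold change had a median of -0.00085.

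PDGFRB, the PDGF receptor beta chain, had the largest difference among the 8 genes. Control libraries 1 to 3 gave 29.3, 27.4 and 28.95 CPM, and knockdown libraries 1 to 3 gave 105.8, 106.2 and 106.5 CPM. The knockdown libraries lay close together, far above the controls. The means were 28.6 ± 0.999 and 106 ± 0.388 CPM (SD, n = 3), a 3.71-fold higher level (log2 fold change 1.89, SE 0.0438). Knockdown libraries 1 to 3 held 3193, 3434 and 3183 PDGFRB counts. At such counts, counting error alone is larger than the knockdown SD, so that SD is not read as precision. Ordered by log2 fold change, PDGFRB was number 80 from the top of 17592 tested genes. Among the 12120 tested genes whose mean log2 CPM was 2 or more, it was number 24.

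PDGFRA, the alpha chain, had a smaller difference than PDGFRB. Control libraries 1 to 3 gave 29.1, 32.5 and 31.0 CPM, and knockdown libraries 1 to 3 gave 45.2, 43.4 and 38.9 CPM. The groups were apart, with the lowest SOX2 siRNA value in replicate 3. The log2 fold change was 0.46 (SE 0.0608), or 1.38-fold. Number 1162 from the top among all tested genes, PDGFRA stood well below PDGFRB in that order.

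KIT, the receptor for KITLG, was near the limit of detection. Control libraries 1 to 3 held 12, 8 and 7 counts, knockdown libraries 1 to 3 held 5, 2 and 2, and 2 of the 6 libraries were at or under 3 counts. Because of these low counts KIT was not tested. The summed counts of 27 and 9 gave a ratio of SOX2 siRNA to control of 0.313, with an exact 95% interval of 0.129 to 0.685 that covers counting error only and uses total counts for scaling.

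Of the PDGF ligands, PDGFA and PDGFC were higher after SOX2 siRNA. PDGFA, the ligand chain of the alpha receptor, was at 2.94, 2.79 and 2.91 CPM in control and 6.76, 7.98 and 7.63 CPM in knockdown libraries. All SOX2 siRNA values lay above all control values. The log2 fold change was 1.37 (SE 0.116), or 2.58-fold higher. PDGFC, a latent ligand with a CUB domain, was at 15.2, 16.6 and 17.3 CPM in control and 25.8, 25.2 and 28.8 CPM in knockdown libraries. Its groups did not overlap either, and the log2 fold change was 0.70 (SE 0.0688), or 1.63-fold higher.

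PDGFB and PDGFD, whose products can bind the beta receptor, were both low. PDGFB had 18, 12 and 14 counts in control and 8, 10 and 14 counts in knockdown libraries. On the CPM scale its groups were apart by a narrow gap, between 0.469 CPM in knockdown replicate 3 and 0.479 CPM in control replicate 2. Its log2 fold change was -0.54 with an SE of 0.343. PDGFD had 16, 14 and 11 counts in control and 17, 10 and 15 counts in knockdown libraries, and the groups overlapped. Its log2 fold change of -0.051 had an SE of 0.341, and its sign turned without control replicate 2 (0.070) and without knockdown replicate 2 (0.17). At these counts a modest difference in either gene was not detectable.

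KITLG, the KIT ligand, was the only one of the 5 called genes of the set that was lower. Control libraries 1 to 3 gave 70.1, 76.6 and 77.1 CPM, and knockdown libraries 1 to 3 gave 18.7, 21.3 and 25.5 CPM. The groups were far apart, although the knockdown libraries differed among themselves, from replicate 1 at the lowest to replicate 3 at the highest. The means were 74.6 ± 3.87 and 21.8 ± 3.43 CPM (SD, n = 3), and the log2 fold change was -1.77 (SE 0.103), 3.42-fold lower. KITLG was number 82 from the bottom of the 17592 tested genes. Counts per gene cannot tell apart the transcripts for the membrane-bound and soluble forms of this ligand.

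Of the 7 tested genes, 5 were called, 4 of them higher and 1 lower, against 28.2% of all tested genes. For 6 of the 7, every library of one group lay above every library of the other, against 41.8% of all tested genes. The set was chosen on this contrast, so nothing is read from these shares. Because the libraries are bulk RNA, a change in the number of cells that carry a transcript and a change in the amount per cell cannot be told apart for any gene here.

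**Figure D1:**
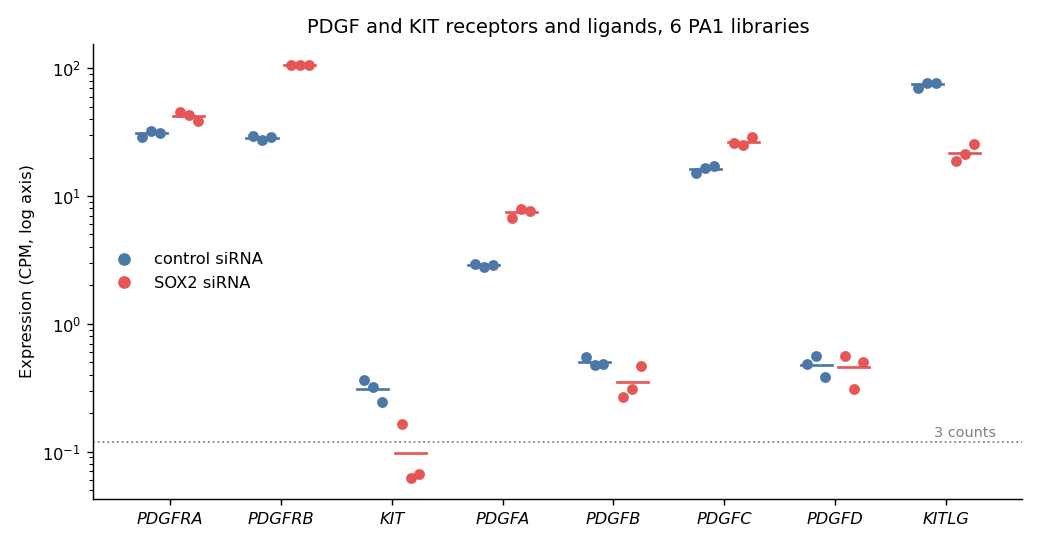
Expression in CPM (log axis) of the 3 receptors and 5 ligands in each of 3 control siRNA (blue) and 3 SOX2 siRNA (red) libraries; points are libraries, short lines are group means, and the dotted line is the highest CPM value of 3 counts in any library. PDGFRB lies at 27.4 to 29.3 CPM in control and 105.8 to 106.5 CPM in knockdown libraries, KITLG moves the opposite way, and KIT lies at 0.242 to 0.364 CPM in control and at 0.0619 to 0.166 CPM in knockdown libraries, where 2 of 3 points fall under the line.

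**Figure D2:**
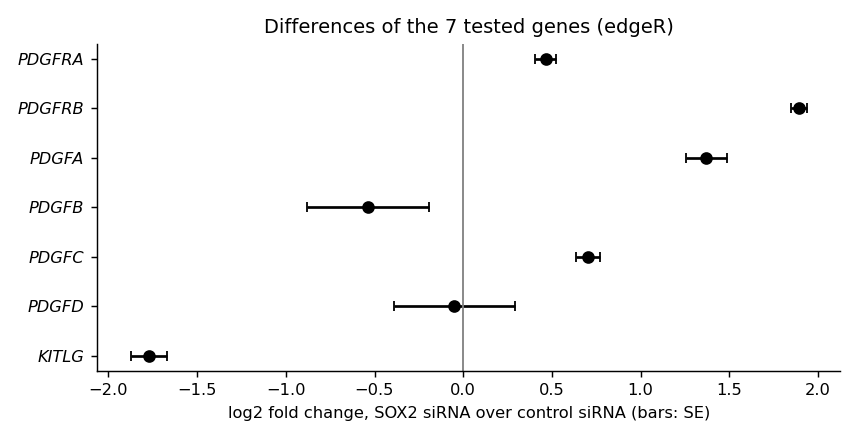
Log2 fold change (SOX2 siRNA over control siRNA, edgeR) of the 7 tested genes with its SE as bars. PDGFRB, PDGFA, PDGFC and PDGFRA lie above 0, KITLG lies at -1.77, and the bars of PDGFB and PDGFD are the widest.

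Levels of different genes were compared per kilobase (kb) of exon, using the summed exon length of each gene in GENCODE 29. In the control libraries KITLG had the highest level, at 12.02 ± 0.624 CPM per kb (SD, n = 3). PDGFRB followed at 4.001 ± 0.14 CPM per kb, then PDGFRA at 3.17 ± 0.170 and PDGFC at 2.93 ± 0.185 CPM per kb. The order of PDGFRB and PDGFRA in control rests on the exon lengths used, 7137 and 9732 bases. In CPM their control means were 28.6 and 30.9, with overlapping libraries. Which exons PA1 cells use was not measured. The libraries of PDGFRA and PDGFC overlapped, so their order is not resolved. PDGFA stood at 0.694 ± 0.0183 CPM per kb, PDGFB at 0.134 ± 0.00981 and PDGFD at 0.111 ± 0.0210, with the last pair overlapping. KIT was lowest at 0.0554 ± 0.0110 CPM per kb.

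After SOX2 siRNA the order was different. PDGFRB was highest at 14.9 ± 0.0541 CPM per kb (SD, n = 3), an SD smaller than counting error alone gives. PDGFC at 4.76 ± 0.344, PDGFRA at 4.37 ± 0.337 and KITLG at 3.52 ± 0.553 CPM per kb came next, and the libraries of each overlapped those of its neighbour in this order. PDGFA was at 1.80 ± 0.152 CPM per kb. PDGFD and PDGFB overlapped again, at 0.107 ± 0.0311 and 0.0924 ± 0.0285, and KIT was at 0.0176 ± 0.0105 CPM per kb.

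These levels give the balance of the 2 PDGF receptor chains in each library. The ratio of PDGFRB to PDGFRA per kb was 1.37, 1.15 and 1.275 in control libraries 1 to 3, while knockdown libraries 1 to 3 gave 3.19, 3.34 and 3.74. Every knockdown library thus had a higher ratio of beta to alpha receptor mRNA than any control library. The exon lengths used set the size of the ratio but not this order of the groups. Whether beta exceeded alpha in control depends on those lengths. The receptors summed to 7.17 ± 0.0690 CPM per kb in control and 19.2 ± 0.286 CPM per kb in knockdown libraries (SD, n = 3).

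The PDGF ligand mRNA was mostly PDGFC in both groups. PDGFC made up 75.7% ± 1.68 of the summed PDGF ligand level per kb in control and 70.4% ± 1.71 in knockdown libraries (SD, n = 3). The share of PDGFA was 19.2%, 17.2% and 17.5% in control libraries 1 to 3, while knockdown libraries 1 to 3 gave 25.3%, 29.2% and 25.4%. PDGFB and PDGFD together were minor, with shares of 3.47% ± 0.399 and 2.89% ± 0.587 in control and 1.35% ± 0.328 and 1.59% ± 0.475 in knockdown libraries. Products of both can bind the beta receptor, and which receptor pairs any of the ligands engaged was not measured. KITLG stood at 3.11 ± 0.0479 times the summed PDGF ligand level in control and at 0.519 ± 0.0501 times that level in knockdown libraries.

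**Figure D3:**
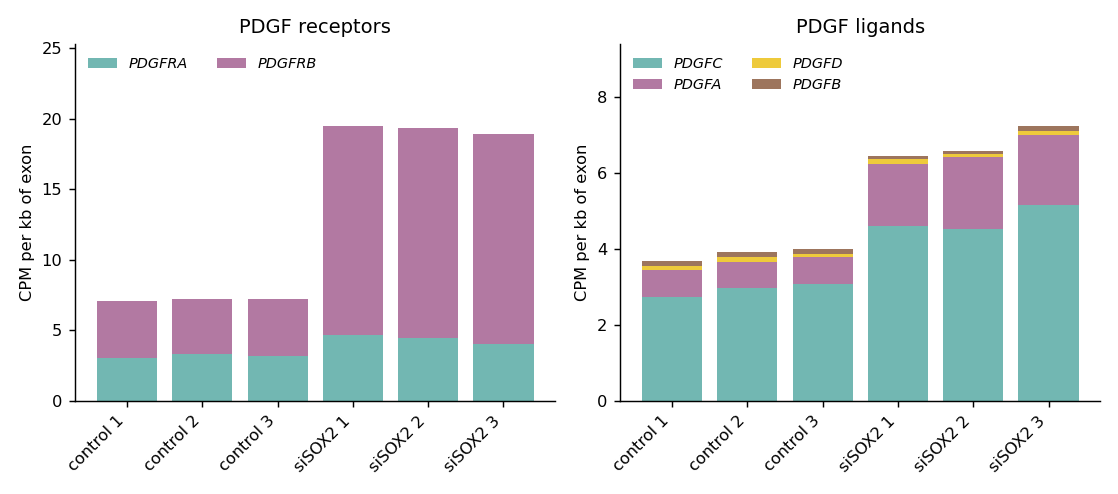
Stacked bars of mRNA level per library, in CPM per kb of exon, for the PDGF receptors (left) and the PDGF ligands (right). PDGFRB makes up most of the taller receptor bars of the knockdown libraries, and PDGFC makes up most of the ligand bars in all 6 libraries.

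The genes beside the receptors were compared with them. CDX1, a caudal-type homeobox gene, starts 10.9 kb upstream of PDGFRB on the opposite strand. It rose from 4.78 ± 0.334 to 9.53 ± 0.617 CPM (SD, n = 3), a log2 fold change of 0.996 (SE 0.0995; edgeR adjusted p = 6.31e-07). CAMK2A, encoding a calcium-dependent kinase subunit, also lies upstream and rose by a log2 fold change of 0.67 (SE 0.165; edgeR adjusted p = 0.00521). CSF1R, a class III receptor gene 0.464 kb downstream of PDGFRB, was nearly silent, with 8, 10 and 6 counts in control and 5, 6 and 11 counts in knockdown libraries. HMGXB3, TIGD6 and SLC26A2, downstream of PDGFRB, had log2 fold changes of 0.11, -0.10 and 0.12, with edgeR adjusted p-values of 0.0730, 0.462 and 0.0714. SLC26A2 was called with the replicate number as a block (0.12, adjusted p = 0.0229). It was also called with no filter on low counts (0.13, adjusted p = 0.0242), without control replicate 2 (0.16, adjusted p = 0.0465) and without knockdown replicate 1 (0.16, adjusted p = 0.0161). HMGXB3 was called without control replicate 1 (0.14, adjusted p = 0.0347). SLC6A7 had at most 11 counts in any library and was not tested.

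Around PDGFRA and KIT the differences of the tested genes were smaller than that of PDGFRA. KDR, a VEGF receptor gene on the far side of KIT, fell by 0.30 on the log2 scale (SE 0.0696; edgeR adjusted p = 0.00348). SRD5A3 fell by 0.25 (edgeR adjusted p = 0.00201) and TMEM165 rose by 0.25 (edgeR adjusted p = 4.21e-04). CHIC2, upstream of PDGFRA, had a log2 fold change of 0.29 (edgeR adjusted p = 0.0368), a call that was lost under 8 of its 15 alternatives, among them DESeq2 (adjusted p = 0.116). Leaving out control replicate 1 or 2 or knockdown replicate 2 or 3 also ended it (adjusted p 0.0697 to 0.190). FIP1L1, LNX1 and CLOCK had log2 fold changes of -0.055, -0.031 and -0.095, with edgeR adjusted p-values of 0.403, 0.907 and 0.104. LNX1 turned to 0.047 without control replicate 2 and to 0.053 without knockdown replicate 3. CLOCK was called with upper-quartile scaling (-0.11, adjusted p = 0.0444). GSX2 had at most 7 counts in any library and was not tested. Exons of several of these genes overlap on opposite strands (FIP1L1 with LNX1, TMEM165 with CLOCK, HMGXB3 and SLC26A2 with TIGD6, CAMK2A with SLC6A7), and the use of strand in counting is not given in the sources used here.

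**Figure D4:**
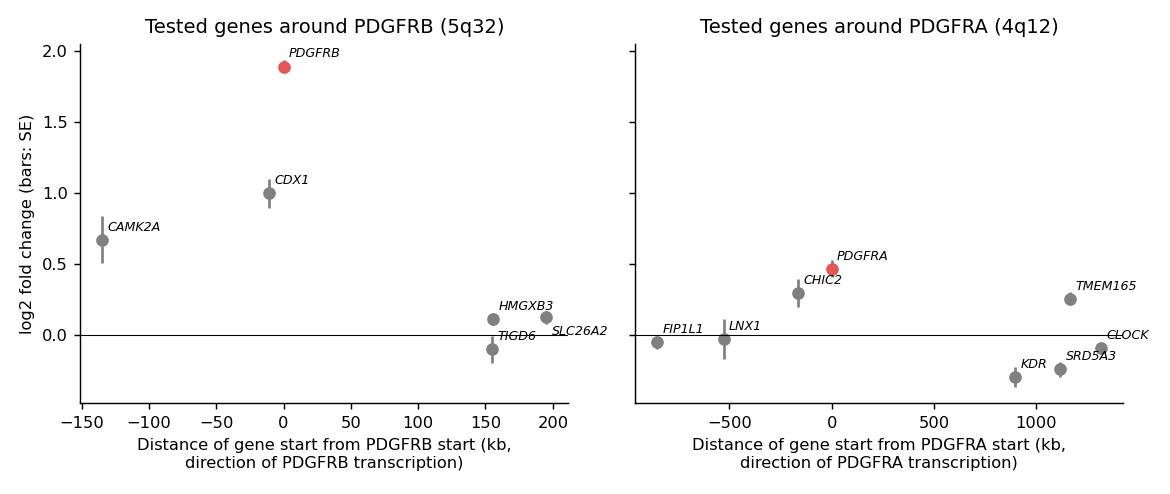
Log2 fold change (SOX2 siRNA over control siRNA, bars SE) of tested genes against the distance of their start from the start of PDGFRB (left) or PDGFRA (right), in kb along the direction of transcription of that receptor. Red points are the receptors; CDX1 and CAMK2A lie above 0.5 upstream of PDGFRB, and the 3 tested genes downstream of it lie between -0.10 and 0.12.

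The related class III and VEGF receptors and their ligands had 9 tested genes of 13, of which 3 rose and 2 fell (median log2 fold change 0.15, against -0.00085 over all tested genes). That is 55.6% called, against 28.2% of all tested genes, and the count was 4 in 9 of 15 alternatives. The list median is the value of VEGFA, which was not called (SE 0.422, edgeR adjusted p = 0.853). VEGFA was at 45.1, 26.9 and 16.1 CPM in knockdown libraries 1 to 3, so no shift of the list is read from the median. CSF1, a ligand of CSF1R, had a log2 fold change of -0.20 (edgeR adjusted p = 0.0492). PGF, placental growth factor, rose most, from 4.72 ± 0.679 to 11.8 ± 0.532 CPM (SD, n = 3), a log2 fold change of 1.31 (SE 0.103; edgeR adjusted p = 3.06e-08). FLT1, the receptor for PGF, rose by 0.36 (edgeR adjusted p = 1.52e-04) and VEGFB, another of its ligands, by 0.40 (edgeR adjusted p = 0.00519). The other class III receptors CSF1R and FLT3 were at no more than 11 counts in any library. PDGFRA and PDGFRB had at least 813 and 687 counts in every library.

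Among 14 genes that process the ligands or serve as co-receptors, all were tested, 6 rose and 4 fell (median log2 fold change 0.19). The share called was 71.4%, against 28.2% of all tested genes, and 8 to 10 were called over the alternatives. NRP1, encoding neuropilin 1, a co-receptor for VEGF and PDGF ligands, rose from 4.18 ± 0.201 to 11.7 ± 0.990 CPM (SD, n = 3), a log2 fold change of 1.49 (SE 0.0987; edgeR adjusted p = 3.58e-09). NRP2, its relative, rose from 411 ± 11.2 to 686 ± 17.8 CPM (log2 fold change 0.74; edgeR adjusted p = 3.66e-11). PLAU, the urokinase that can cut latent PDGF-D, fell by 0.56 (edgeR adjusted p = 5.90e-05). LRP1, an endocytic receptor that binds PDGFRB, had a log2 fold change of 0.31 (edgeR adjusted p = 0.0428). Its call was lost without any 1 of the control libraries (adjusted p 0.0629 to 0.147), with upper-quartile scaling (0.088) and with total counts only (0.0836).

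The adaptors and kinases that bind activated receptors were all measured, and 8 of 26 rose and 3 fell (median 0.046). The share called was 42.3%, against 28.2% of all tested genes, and 9 to 12 were called over the alternatives. SRC, a tyrosine kinase, rose by 0.41 (edgeR adjusted p = 4.47e-06), while its relative YES1 fell by 0.32 (edgeR adjusted p = 2.88e-06). PIK3R3, a regulatory subunit of PI3 kinase, rose by 0.35 (edgeR adjusted p = 1.69e-05). PLCG2, a phospholipase C, fell by 0.36 (edgeR adjusted p = 5.81e-05). In the RAS, MAP kinase and AKT cascade 7 of 17 tested genes rose and 1 fell (median 0.083), or 47.1% called against 28.2% of all tested genes, with 6 to 9 over the alternatives. Of these, AKT1 rose by 0.38 (edgeR adjusted p = 3.59e-06) and SOS2, a RAS activator, by 0.36 (edgeR adjusted p = 1.61e-05).

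Of 23 genes that restrain the receptors, 19 were tested, 3 rose and 3 fell (median 0.077). The share called, 31.6%, is near the 28.2% of all tested genes. SH2B3, also called LNK, an adaptor that damps KIT and PDGF receptor signalling, rose from 31.99 ± 2.09 to 51.3 ± 1.48 CPM (SD, n = 3), a log2 fold change of 0.68 (edgeR adjusted p = 2.62e-08). GRB10, an inhibitory adaptor, fell from 161 ± 4.51 to 118 ± 0.740 CPM (log2 fold change -0.45; edgeR adjusted p = 4.76e-08).

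Early response genes, which PDGF is known to induce within minutes to hours, were all tested. Of the 16, 3 rose and 5 fell, and the median log2 fold change was -0.34. The share called was 50%, against 28.2% of all tested genes, and the count ranged from 7 without control replicate 2 to 12 with no filter on low counts. The zinc finger genes EGR1, EGR2 and EGR3 fell by 0.55, 1.39 and 0.90 (edgeR adjusted p = 7.63e-08, 1.22e-05 and 6.79e-07). In contrast, IER2 and IER3 rose by 0.52 and 0.78 (edgeR adjusted p = 2.03e-04 and 1.33e-07). EGR1 went from 112 ± 6.81 to 76.4 ± 2.62 CPM and IER3 from 20.3 ± 2.13 to 35.03 ± 1.252 CPM (SD, n = 3). Exons of IER2 and IER3 overlap antisense RNAs that were under 0.3 CPM.

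**Figure D5:**
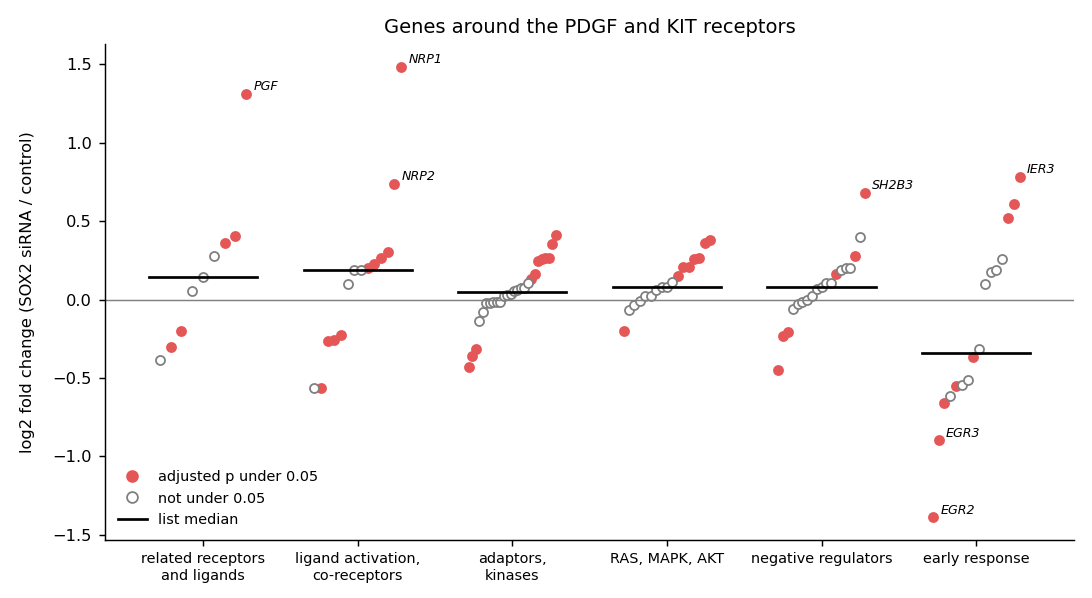
Log2 fold change (SOX2 siRNA over control siRNA) of every tested gene in 6 lists around the PDGF and KIT receptors; filled points have an edgeR adjusted p under 0.05, open points do not, and black lines are list medians. PGF, NRP1, SH2B3 and IER3 stand highest in their lists, and EGR2 and EGR3 stand lowest among the early response genes.

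The genes most like PDGFRB in their pattern over the 6 libraries were found by the Euclidean distance between log2 CPM profiles, each centred on its mean, among the other 12119 tested genes at a mean log2 CPM of 2 or more. The nearest was DUSP6, a phosphatase that acts on ERK, at a distance of 0.103, followed by KIF26B (0.113), the imprinted non-coding RNA H19 (0.126), the forkhead gene FOXC1 (0.143) and CYP1B1 (0.154). Their log2 fold changes were 1.95, 1.98, 1.95, 1.83 and 1.89, beside 1.89 for PDGFRB. The 6 points share the difference between the groups. CYP1B1 shares exonic bases on the opposite strand with RMDN2, at 7.53 and 6.82 CPM in the groups. Likewise, exons of SH2B3 overlap ATXN2, those of LRP1 overlap STAT6 and those of MCAM overlap CBL, all on opposite strands, so reads of each pair may be split.

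Markers of cell types in which these genes are known were measured beside them. Of the tested pluripotent, mural (pericyte and smooth muscle) and fibroblast markers, 55.6%, 37.5% and 71.4% were called, against 28.2% of all tested genes. These lists are short, and nothing is read from their shares. Of 10 markers of pluripotent and embryonal carcinoma cells, 9 were tested, 4 rose and 1 fell, and the summed level of the list was 2843 to 2905 CPM in control and 2830 to 2900 CPM in knockdown libraries. Large differences in opposite directions lie behind these similar sums. PODXL, encoding podocalyxin, fell from 1316 ± 15.0 to 671 ± 25.1 CPM (log2 fold change -0.97; edgeR adjusted p = 9.54e-13). The RNA-binding genes LIN28A and LIN28B rose by 0.70 and 0.59 (edgeR adjusted p = 1.80e-11 and 5.09e-09). ZFP42, one of those 10, had at most 1 count in any library. The 11 markers of pericytes and smooth muscle summed to 348 to 377 CPM in control and 421 to 446 CPM in knockdown libraries. Of the 8 tested, RGS5, MCAM and ANPEP rose, with log2 fold changes of 0.80, 0.55 and 1.23 (edgeR adjusted p = 1.92e-10, 6.53e-07 and 7.03e-05), and the other 5 were not called. A second gene in GENCODE 29 carries the symbol RGS5, and the counts do not separate them. The pericyte channel genes ABCC9 and KCNJ8 had no counts in the control libraries and at most 5 in any knockdown library. The 11 fibroblast and mesenchyme markers summed to 399 to 450 CPM in control and 497 to 537 CPM in knockdown libraries, 3 of the 7 tested rose and 2 fell, and DCN had at most 4 counts in any library. COL1A1, a collagen gene, carried most of that sum and of its rise, from 282 ± 24.3 to 358 ± 26.2 CPM. TWIST1 rose by 1.5 on the log2 scale (edgeR adjusted p = 2.32e-08), while the mesenchymal genes PRRX1 and PDPN fell by 2.64 and 0.77 (edgeR adjusted p = 4.87e-04 and 3.91e-08), PRRX1 from no more than 17 counts in any library. The increase of COL1A1 lost its call without control replicate 1 (edgeR adjusted p = 0.0715) and without knockdown replicate 3 (0.0579). The part of other cell types in the higher PDGFRB level was not tested.

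Markers of the other cells in which KIT or PDGFRA is known were also measured. Of the tested germ cell, primitive endoderm and endothelial markers, 75%, 42.9% and 100% were called, against 28.2% of all tested genes. For melanocyte and blood markers the share was 0%, and no mast cell marker was tested. These lists are short too, and nothing is read from their shares. The 6 mast cell markers had at most 3 counts each in any library, and MS4A2 and FCER1A had none. Of the 8 germ cell markers, 4 were tested, of which 1 rose and 2 fell, and the list summed to 55.7 to 58.3 CPM in control and 46.7 to 48.9 CPM in knockdown libraries. DDX4 and NANOS3, which define germ cells, had at most 3 counts in any library. Other markers of this list were expressed. DAZL fell from 9.05 ± 0.206 to 5.19 ± 0.358 CPM and TFAP2C from 27.1 ± 1.19 to 11.9 ± 0.297 CPM (SD, n = 3). Their log2 fold changes were -0.80 and -1.19 (edgeR adjusted p = 5.06e-06 and 1.52e-10). PRDM1 rose by 0.56 on the log2 scale (edgeR adjusted p = 5.1e-07). The 6 melanocyte markers summed to 34.6 to 35.1 and 36.0 to 37.0 CPM, nearly all of it PMEL, whose exons overlap those of CDK2 on the opposite strand, and TYR had no counts. MITF, the melanocyte regulator, went the other way, with 13, 9 and 6 counts in control and 4, 1 and 4 in knockdown libraries. Its summed counts of 28 and 9 gave a ratio of 0.302, with an exact 95% interval of 0.125 to 0.657 for counting error only. The 7 blood markers summed to 2.18 to 2.55 CPM in control and 1.52 to 3.21 CPM in knockdown libraries, with GATA1 at no counts. The 10 primitive endoderm markers, where PDGFRA is known, summed to 1038 to 1091 CPM in control and 640 to 649 CPM in knockdown libraries. Of the 7 tested, 2 rose and 1 fell. COL4A1 carried most of that sum and of its fall, from 862 ± 24.4 to 419 ± 1.64 CPM (SD, n = 3). Its log2 fold change was -1.04 (edgeR adjusted p = 2.07e-13). GATA4 went the other way, from 6.58 ± 0.689 to 13.2 ± 0.438 CPM (log2 fold change 0.9996; edgeR adjusted p = 1.48e-07). LAMA1 rose by 0.14 on the log2 scale (edgeR adjusted p = 0.00671), a call lost without knockdown replicate 2 (adjusted p = 0.0555). SOX17 had at most 2 counts in any library. The 7 endothelial markers summed to 129 to 133 CPM in control and 104 to 106 CPM in knockdown libraries, with 4 of 5 tested genes lower and 1 higher, and CLDN5 at no counts. TEK, one of those lower, lost its call under 9 of 15 alternatives, among them the replicate block (edgeR adjusted p = 0.0512), and VWF lost it with DESeq2 (adjusted p = 0.0525). The part of these cell types in the levels of KIT, KITLG and PDGFRA was not tested.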

How the data were processed

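Counts were analysed for 6 polyadenylated RNA libraries of PA1 cells. The authors deposited raw read counts per gene symbol; per the submitters' processing notes the tools were bcl2fastq 2.20.0, STAR 2.7.3a, Salmon 0.14.1 and DESeq2 1.28.1 with GRCh38.p13, with no roles given. The annotation and the use of strand are not given in the sources used here. Columns were matched to libraries by the identifier in each description.

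The 8 genes and all gene lists were chosen with earlier results of these data known. Genes were filtered with edgeR 4.0.16 (filterByExpr, minimum count 10), scaled by TMM and tested with glmQLFit (robust) and glmQLFTest on group in R 4.3.3, calling genes at a Benjamini-Hochberg adjusted p under 0.05 across every tested gene. The SE given with a log2 fold change is its absolute value divided by the square root of the F statistic of its test. It is not a standard error reported by the fit. About 99.9% of each library's counts lay in tested genes, and totals are given in the text. Pathway genes named were, in each list, the 5 or fewer with the smallest p among called genes past an absolute log2 fold change of 0.3; all tested flanking genes and the 5 genes nearest to PDGFRB were also named. Some genes that meet this rule are left out here. Other genes named (CSF1R and FLT3 as class III receptors, CSF1, VEGFA, single markers) were chosen after their values were seen. Alternatives were other scalings and filters, DESeq2 1.42.0, limma 3.58.1 (voom), robust=FALSE, each library left out and the replicate number as a block. The fits were also run on simulated counts with far fewer changed genes than were called here, which says nothing of how many calls here are right. Lengths, positions and overlaps came from GENCODE 29 and promoters from RefSeq (GRCh38.p14).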

Additional observations from a re-analysis of the deposited data

How the results depend on the processing

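Over 15 alternatives, 70 fold changes of single genes were followed. Their pathway genes and markers were picked as called in the main fit, and 5 genes as nearest to PDGFRB. Most of their values were therefore likely to keep their calls, and the share that did is not read as support. Of 1048 values, 1012 kept their direction and their side of the threshold, 26 lost a call, 6 gained one and 4 turned direction. Those that turned were PDGFD (0.070 without control replicate 2 and 0.17 without knockdown replicate 2; range -0.23 to 0.17) and LNX1 (0.047 without control replicate 2 and 0.053 without knockdown replicate 3; range -0.092 to 0.053); both lie near 0 and the cause was not tested. PDGFRB ranged from 1.87 to 1.91, KITLG from -1.90 to -1.68, PDGFA from 1.32 to 1.43, PDGFC from 0.64 to 0.74 and PDGFRA from 0.41 to 0.52. With the replicate number as a block, PDGFRB was at 1.89, KITLG at -1.78 and SOX2 at -2.28, and 5177 genes were called in place of 4964. Same-numbered libraries correlated at 0.0868, -0.0377 and -0.0311 in their deviations from the group means, against -0.120 to 0.155 for other pairs, and the numbers were not taken as pairing; the block added a call for SLC26A2 and ended that of TEK, with no other change among these genes. The block also moved the called counts of the related receptors and ligands from 5 to 4, the adaptors and kinases from 11 to 12, the RAS, MAP kinase and AKT cascade from 8 to 9, the restraining genes from 6 to 7 and the early response genes from 8 to 10. Leaving out 1 library called 3760 to 4863 genes. With upper-quartile scaling 45.8% of calls were higher, against 52.4%, so which direction had more calls depends on the scaling. With no filter on low counts KIT had a log2 fold change of -1.62 and an edgeR adjusted p of 0.0457, just under the threshold. That made 6 called genes of the set in place of 5, in a fit that called 5212 of 33956 genes. KIT held only 2 to 12 counts per library, and nothing is read from this call. PDGFB had no fold change where 10 counts were required in every library. Depth limits KIT, PDGFB and PDGFD most.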
